A study of Mus musculus with 2 samples.

Results

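Notch receptors, their ligands and their first target genes were followed in mouse embryonic fibroblasts with and without p65. They are 10 genes: the receptors Notch1, Notch2, Notch3 and Notch4, the ligands Jag1, Jag2 and Dll1, and the targets Hes1, Hey1 and Heyl. Of these, 9 were found among the 16881 RefSeq transcripts of the deposited table, and Heyl was not analysed here. Total RNA had been sequenced from 1 culture of p65+/+ and 1 culture of p65-/- cells, both immortalised fibroblasts of the C57BL/6 strain, and the labels name no stimulus. How the cells were immortalised, whether each culture was a clone, and which part of the p65 gene was removed are not stated in the labels. The Rela gene encodes p65, which is part of the transcription factor NF-kB, and the design compares gene expression in its presence and absence. Each genotype was sequenced once, so the differences below carry no p-value and have not been checked in replicates. The libraries are called wild-type and p65-null, or null for short.

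Notch proteins are receptors in the cell membrane that are switched on by Jagged and Delta ligands on a neighbouring cell. Binding leads to cleavage by ADAM proteases and then by gamma-secretase, and the freed intracellular part of the receptor enters the nucleus. There it joins the DNA-binding protein RBPJ and a Mastermind co-activator, and genes of the Hes and Hey families of repressors are transcribed. In mesenchymal cells the pathway is known for its part in the fate of mural, skeletal and other stromal cells, and Jag1 has been described as a target gene of NF-kB.

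Sequencing depth was 20794476 fragments for wild-type and 15441394 for p65-null cells. Ratios are p65-null over wild-type CPM, the counts of a gene scaled to a common library size, here normalised by the trimmed mean of M values, and the 95% intervals beside them cover counting error in these 2 libraries only. A gene is called measured here if its CPM averaged 1 or more over the libraries. Of all 12135 such genes, 12.2% were higher by 2-fold or more in the null library and 13.7% were lower by as much. The log2 ratio of a gene went with the GC content of its transcript (Spearman 0.44 over genes, which are not independent replicates), so ratios corrected for GC content and length are given too. Higher genes made up 46.9% of those 2-fold apart, or 60.6% once corrected in this way and 23.0% with ribosomal protein genes as the common scale. Rela, the targeted gene, was 6.90-fold lower in p65-null cells (5.96 to 8.03), at 13.1 against 90.5 normalised CPM. All 10 fibroblast markers looked up were detected in both libraries, Thy1 being the lowest at 82.9 and 9.64 CPM. The neural markers went both ways. Sox2 had 2 wild-type and 143.5 p65-null fragments, while Nes was 6.65-fold and Tubb3 2.89-fold lower in null cells. Epithelial markers summed to 0.118 and 2.81 CPM, with Krt18 at 0 and 23 fragments and Cdh1 at 0 and 11. Macrophage markers summed to 3.68 and 5.61 CPM. The cultures also differed in sex-linked genes, since Xist had 956 wild-type and 2 p65-null fragments and the Y-linked Kdm5d 0 and 207. Cdkn2a and Mtap, both on chromosome 4, were nearly absent from null cells, with 1693.5 against 3 and 3407 against 1 fragments. The part of such differences between the cultures in the results below was not tested. In bulk RNA, fewer cells of a type and less RNA per cell cannot be told apart.

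Of the 8 measured members, 4 were higher by 2-fold or more in the null library, namely Notch1, Notch3, Dll1 and Hey1, and 0 were lower by as much, beside the 12.2% and 13.7% of all genes. The median log2 ratio of the 8 was 1.21, and that of all measured genes was -0.03. For 3 of the 4, all but Dll1, the interval lay wholly past 2-fold, and 7.95% of all measured genes lay past it in that direction. Notch3, Dll1 and Hey1 were under 1 CPM in the wild-type library and passed the expression minimum through the p65-null library alone, so these counts describe the members and are no support for a direction. Jag2 fell under the minimum.

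**Figure D1:**
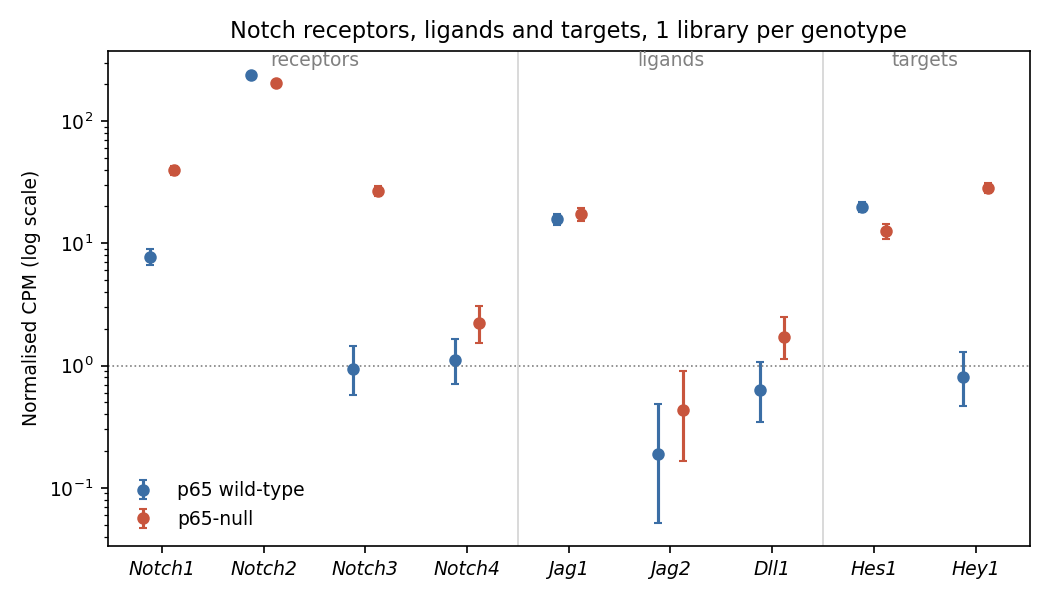
Normalised CPM (log axis) of the 9 detected genes in the wild-type (blue) and p65-null (red) library, 1 point per library with its exact 95% Poisson interval; the dotted line is the minimum of 1 CPM. The intervals of Notch1, Notch3, Dll1 and Hey1 lie apart with p65-null higher, and those of Notch2 and Hes1 with p65-null lower. Those of Notch4, Jag1 and Jag2 overlap.

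The receptors differed most in Notch1 and Notch3. Notch1, the founding receptor of the family (transcript NM_008714, GRCm38 chromosome 2, 26457902 to 26503822), had 164.5 wild-type and 597.5 p65-null fragments. These counts correspond to 7.76 CPM (6.62 to 9.04) and 39.4 CPM (36.3 to 42.7), so the intervals of the libraries did not overlap. Notch1 was thus 5.08-fold higher in null cells (4.27 to 6.08), with a log2 ratio of 2.35 and a corrected one of 2.18.

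Notch3, the receptor typical of smooth muscle and pericytes (NM_008716, chromosome 17, 32120820 to 32166896), had 20 wild-type and 406 p65-null fragments. It stood at 0.944 CPM (0.576 to 1.46) in the wild-type and 26.8 CPM (24.3 to 29.5) in the p65-null library. The difference was 28.4-fold (18.2 to 47.0), or a log2 ratio of 4.83 (4.18 to 5.55) and 4.67 after correction. Notch3 and Hey1 were the 2 members higher by 8-fold or more, as were 2.32% of all measured genes. Among 10 mural markers looked up 9 were found, and their summed level was 3188 CPM in the wild-type and 3670 CPM in the p65-null library, nearly all of it from Acta2, which was 1.37-fold higher in null cells, and Tagln, which was 1.56-fold lower. The other markers went both ways. Mcam was 3.32-fold lower (2.89 to 3.81) with 1181.5 and 254.5 fragments, Rgs5 3.27-fold higher (1.88 to 5.87) with 19.5 and 45.5, and Cspg4 1.23-fold higher with 1698 and 1486.5. Under the expression minimum, Des had 4 and 16.5 fragments, Myh11 6 and 6, Abcc9 1 and 0, and Higd1b 0 and 1. The part of mural-like cells in the Notch3 difference was not tested.

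Notch2, the most abundant receptor (NM_010928, chromosome 3, 98013538 to 98150367), was nearly level between the libraries. It had 5068 wild-type and 3118 p65-null fragments, or 239 CPM (233 to 246) and 206 CPM (199 to 213). Its log2 ratio was -0.22 (-0.28 to -0.15), which is 1.16-fold lower (1.11 to 1.21) in null cells, and -0.19 after correction. Notch4, a receptor best known from endothelial cells (NM_010929, chromosome 17, 34564286 to 34588543), was low in both libraries, with 23.5 and 33.5 fragments. Its levels were 1.11 CPM (0.707 to 1.66) and 2.21 CPM (1.53 to 3.10), intervals that overlapped, and its ratio of 1.99-fold (1.14 to 3.54) lay just inside 2-fold. It was past 2-fold with upper quartile factors, at a log2 ratio of 1.11, and with the deeper library thinned, at 1.05. When corrected for GC and length it was at 0.80, with an interval of -0.01 to 1.62 that held 0. Of 10 endothelial markers looked up 9 were found, with summed levels of 26.0 and 34.2 CPM, mostly Flt1 and Egfl7. Of these, Pecam1, Cdh5, Tek, Tie1 and Cldn5 had at most 2 fragments each in the wild-type and at most 3 in the null library. Kdr had 69 and 29 fragments, Flt1 373 and 209, Egfl7 102.5 and 274, and Esam 4.5 and 0. Kdr was 1.70-fold (1.09 to 2.72) and Flt1 1.28-fold lower in null cells, and Egfl7 was 3.74-fold higher. The part of endothelial-like cells in the Notch4 level was not tested.

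The receptor pool therefore had a different make-up in each library, although its sum was close, at 23.9 and 27.4 FPKM (normalised CPM per kilobase of transcript). Per kilobase, Notch2 made up 95.4% of the receptor level in the wild-type library (94.7% to 96.0%) and 71.4% in the p65-null library (70.0% to 72.9%). Notch1 made up 3.43% (2.93% to 3.98%) and 15.2% (14.0% to 16.3%), and Notch3 0.493% (0.301% to 0.760%) and 12.2% (11.1% to 13.3%). Notch4 stayed a minor part, at 0.705% (0.450% to 1.05%) and 1.22% (0.846% to 1.71%). These shares are taken within a library, so they do not depend on how the libraries were scaled to each other, while the sums do. The shares were not corrected for GC content, which was 57.1% for Notch1 and 59.6% for Notch3 transcripts, against 53.6% for Notch2. Notch2 exceeded Notch1 27.8-fold per kilobase in the wild-type (23.8 to 32.7) and 4.72-fold in the p65-null library (4.32 to 5.16). Notch1 exceeded Notch3 6.95-fold (4.36 to 11.7) and 1.24-fold (1.09 to 1.41).

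**Figure D2:**
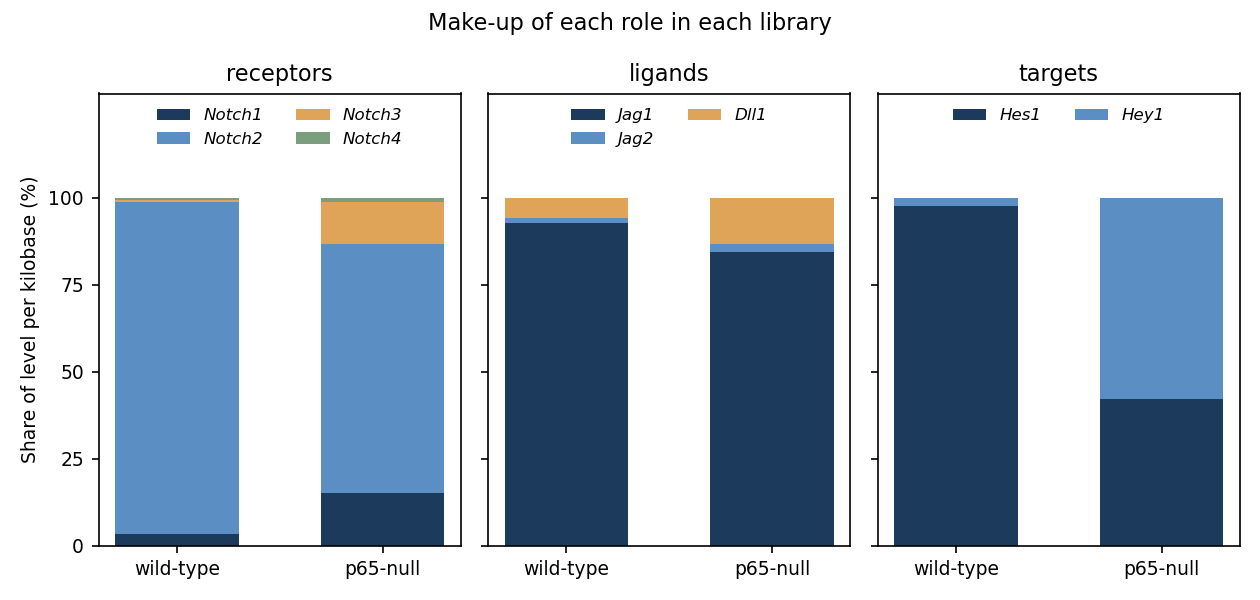
Share of each gene (%) in the length-scaled level of its role group, 1 stacked bar per library, for the 4 receptors, 3 ligands and 2 detected targets. Notch1 and Notch3 together are the visible addition to the p65-null receptor bar, and the target bar passes from 97.6% Hes1 to 57.7% Hey1.

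The promoter windows of the 3 main receptors are shown because the receptors share one signalling mechanism and differed so unequally between the libraries. Each runs 5′ to 3′ on the gene's strand from 250 bases before to 50 bases after the annotated start, taken from RefSeq on GRCm38.p6. Capitals mark every match, on either strand, to the GC box GGGCGG, the RBPJ core TGGGAA or the NF-kB consensus. The windows are chr2:26503773-26504072 on the minus strand for Notch1, chr3:98013288-98013587 on the plus strand for Notch2, and chr17:32166841-32167140 on the minus strand for Notch3.
Notch1: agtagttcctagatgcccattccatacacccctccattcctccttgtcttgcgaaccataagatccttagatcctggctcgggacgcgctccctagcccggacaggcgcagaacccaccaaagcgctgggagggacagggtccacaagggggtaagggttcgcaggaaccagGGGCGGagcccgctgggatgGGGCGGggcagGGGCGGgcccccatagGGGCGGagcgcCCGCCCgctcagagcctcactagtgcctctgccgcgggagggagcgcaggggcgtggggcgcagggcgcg
Notch2: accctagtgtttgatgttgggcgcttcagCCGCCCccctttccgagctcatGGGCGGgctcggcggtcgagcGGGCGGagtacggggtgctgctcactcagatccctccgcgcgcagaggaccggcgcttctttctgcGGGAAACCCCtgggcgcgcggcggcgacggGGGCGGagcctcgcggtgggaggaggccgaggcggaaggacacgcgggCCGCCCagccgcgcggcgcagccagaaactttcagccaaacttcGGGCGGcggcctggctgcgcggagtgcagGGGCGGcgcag
Notch3: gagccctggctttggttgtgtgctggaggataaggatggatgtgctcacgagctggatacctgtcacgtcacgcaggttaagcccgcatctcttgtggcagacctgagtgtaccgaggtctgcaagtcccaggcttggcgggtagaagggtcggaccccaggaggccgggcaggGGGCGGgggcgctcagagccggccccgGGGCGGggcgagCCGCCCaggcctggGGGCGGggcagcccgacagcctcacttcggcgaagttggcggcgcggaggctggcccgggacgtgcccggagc
The windows were rich in G and C, at 68.3% for Notch1, 73.0% for Notch2 and 70.0% for Notch3, against a median of 52.7% over all 32851 promoter windows. They held 5, 7 and 4 GC boxes, a motif found in 35.7% of all windows. The single NF-kB match lay in Notch2, from -112 to -103 relative to the start, where the capitals form a run of 10 letters that matches on both strands, and 4.51% of all windows hold such a match. No RBPJ core was found in the 3 windows, nor in those of Notch4, Jag1, Jag2 and Dll1, and 25.6% of all windows hold one. A match is a description of letters and no evidence of binding. Windows for Hes1, Hey1 and Heyl were not used here.

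Among the ligands, Jag1 was the main transcript in both libraries. Jag1, which activates Notch on adjoining cells (NM_013822, chromosome 2, 137081451 to 137116520), had 333 wild-type and 262.5 p65-null fragments. Its levels were 15.7 CPM (14.1 to 17.5) and 17.3 CPM (15.3 to 19.6), and the intervals overlapped. The log2 ratio of 0.14 had an interval from -0.10 to 0.38 that held 0, and it was 0.38 after the GC and length correction but -0.26 under ribosomal protein scaling, which put the median of all genes at -0.44. The intervals of both these alternatives left out 0, on opposite sides, so the direction for Jag1 depended on the scaling.

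Dll1, the Delta-type ligand of early development (NM_007865, chromosome 17, 15367354 to 15376932), was scarce, with 13.5 and 26.0 fragments. It stood at 0.637 CPM (0.344 to 1.08) in the wild-type and 1.72 CPM (1.12 to 2.51) in the p65-null library. The ratio was 2.70-fold (1.35 to 5.65), a log2 ratio of 1.43 and 1.20 after correction, and its interval reached well under 2-fold. Jag2, the other Jagged ligand (NM_010588, chromosome 12, 112907803 to 112929812), had 4 and 6.5 fragments. Its log2 ratio of 1.19 ran from -0.84 to 3.43, so no difference was detectable at this depth. Per kilobase, Jag1 made up 92.9% of the level of these ligands in the wild-type (89.0% to 95.7%) and 84.6% in the p65-null library (79.2% to 89.1%).

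The targets went apart. Hey1, a repressor of the Hairy and Enhancer-of-split family (NM_010423, chromosome 3, 8663359 to 8667038), had 17.0 wild-type and 426.5 p65-null fragments. It stood at 0.802 CPM (0.467 to 1.28) in the wild-type and 28.2 CPM (25.5 to 31.0) in the p65-null library. Hey1 was 35.1-fold higher in null cells (21.7 to 60.8), the largest ratio of the detected members, with a log2 ratio of 5.13, or 4.96 after correction. It was higher than the ratios of 99.3% of the measured genes, a rank that describes these libraries only.

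Hes1, the most widely expressed repressor of the same family (NM_008235, chromosome 16, 30065357 to 30067796), lay on the other side, with 421.5 and 189.5 fragments. Its levels were 19.9 CPM (18.0 to 21.9) and 12.5 CPM (10.8 to 14.4), and the intervals did not overlap. Hes1 was 1.59-fold lower in null cells (1.34 to 1.90), a log2 ratio of -0.67, or -0.72 after correction and -1.07 under ribosomal protein scaling. Per kilobase, Hes1 exceeded Hey1 40.9-fold in the wild-type library (25.3 to 70.9), while Hey1 exceeded Hes1 1.36-fold in the p65-null library (1.15 to 1.63). The order of these targets was therefore opposite in the libraries, and this comparison too is free of the scaling between them.

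**Figure D3:**
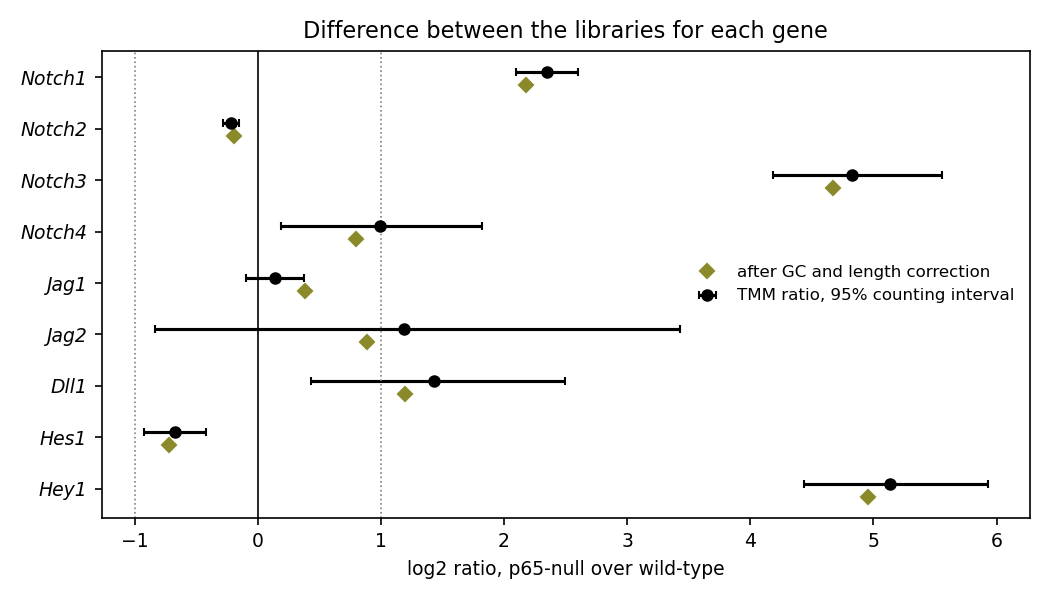
Log2 ratio of p65-null over wild-type for each detected gene (black, with 95% counting interval) and the same after the GC and length correction (olive diamonds, no interval); dotted lines mark 2-fold. Hey1 and Notch3 lie near 5, Notch1 above 2, and Hes1 and Notch2 below 0.

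In order of level per kilobase, the wild-type library ran from Notch2 at 22.8 FPKM through Hes1 at 13.5, Jag1 at 2.80 and Notch1 at 0.818 to Hey1 at 0.331. Dll1 at 0.178, Notch4 at 0.168, Notch3 at 0.118 and Jag2 at 0.0370 FPKM followed, and from Hey1 downwards each gene's counting interval overlapped that of the next. In the p65-null library Notch2 led at 19.6 FPKM, followed by Hey1 at 11.6, Hes1 at 8.52, Notch1 at 4.16, Notch3 at 3.34 and Jag1 at 3.09. Dll1 at 0.479, Notch4 at 0.336 and Jag2 at 0.0840 FPKM were the lowest there, with Notch3 no longer among them. Overlapping neighbours there were Notch3 with Jag1 and Dll1 with Notch4. Hey1 moved from a level above 3.85% of the measured genes to one above 56.8%, and Notch3 from 1.41% to 27.3%.

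Annotated transcripts overlap some of these exons in GENCODE M21, and the labels do not say whether strand was used in counting. On the opposite strand, 0610009E02Rik and Gm13568 share 1068 and 414 exonic bases with Notch1, Gm17276 shares 488 with Notch3 and A930024N18Rik shares 867 with Dll1. On the same strand, Gm42820 shares 541 bases with Notch2. None of these had a matched row in the table, and their reads cannot be told apart from those of the receptors and of Dll1. No overlap was annotated for Notch4, Jag1, Jag2, Hes1 or Hey1.

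The DNA-binding partner of the receptors differed the other way. Rbpj (NM_001277116, chromosome 5, 53555779 to 53657445) had 3789 wild-type and 666 p65-null fragments, or 179 and 44.0 CPM. It was 4.07-fold lower in null cells (3.74 to 4.42), a log2 ratio of -2.02, and -1.33 after the correction, its transcript being low in GC at 43.7%. Over all measured genes, 3.5% were lower by 4-fold or more. Per kilobase, Rbpj stood at 32.6 FPKM in the wild-type and 8.02 FPKM in the p65-null library. Its level was thus 1.37 times the receptor sum in the former and 0.292 times in the latter. These levels were not corrected for GC content, and the receptor transcripts were richer in GC, at 53.6% to 61.2%. The size of the shift in this proportion therefore holds for uncorrected levels only. Processed copies of the gene, Rbpj-ps1 and Rbpj-ps3, are annotated, and the labels do not say how reads were shared with them. Both RefSeq windows for Rbpj lie inside the annotated span of the gene, at a start site other than its first base. The start of the counted transcript itself was not looked up. The first of them (chr5:53590096-53590395, plus strand) is shown because it held 2 matches to the factor's own core motif, in capitals, at -149 to -144 and -65 to -60, while the second, which overlaps it, held 1.
Rbpj: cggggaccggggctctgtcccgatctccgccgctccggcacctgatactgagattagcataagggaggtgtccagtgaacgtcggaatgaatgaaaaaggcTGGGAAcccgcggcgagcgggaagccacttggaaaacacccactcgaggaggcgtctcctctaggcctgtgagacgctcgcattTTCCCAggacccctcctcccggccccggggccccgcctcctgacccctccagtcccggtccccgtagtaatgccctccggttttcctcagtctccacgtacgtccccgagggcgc

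**Figure D4:**
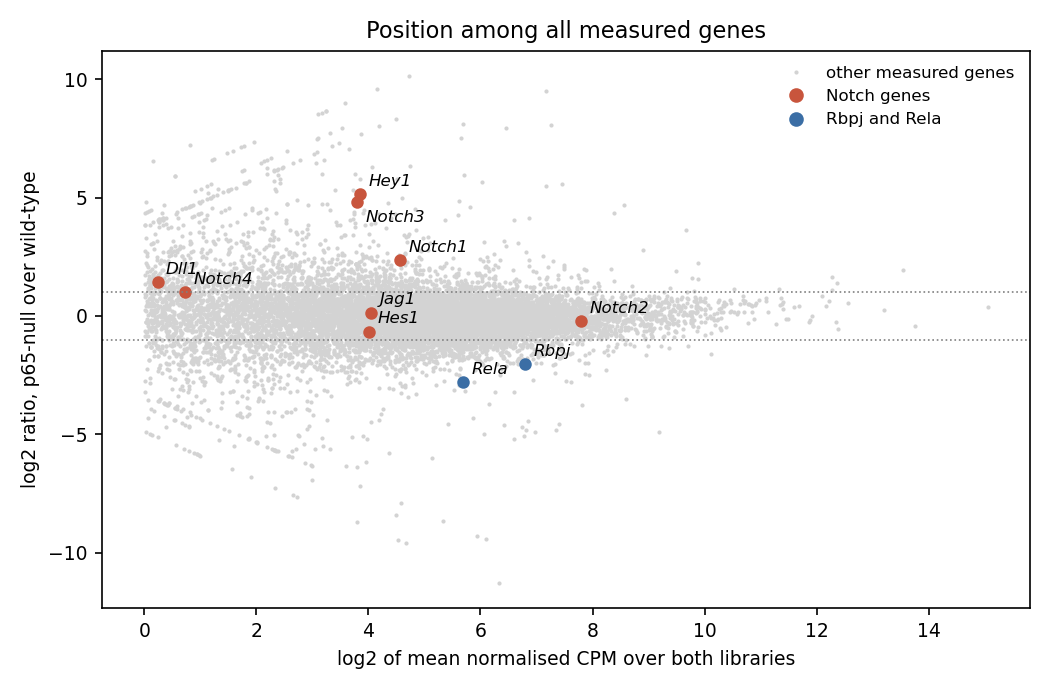
Log2 ratio of p65-null over wild-type against the log2 of mean normalised CPM for all 12135 measured genes (grey), with the 8 measured Notch genes in red and Rbpj and Rela in blue; dotted lines mark 2-fold. Hey1 and Notch3 lie in the upper fringe, Notch2 and Jag1 in the central band, and Rbpj in the lower fringe.

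The remaining pathway genes, 92 listed by role of which 77 were measured, lay within 2-fold for the most part. Differences of 2-fold or more were seen for 9 higher and 9 lower genes, with 59 within 2-fold (11 higher and 9 lower when corrected for GC and length) and a median log2 ratio of -0.16 (0.03 when corrected). With the 12.2% and 13.7% of all measured genes as background, the uncorrected counts were near or under it. The corrected counts stand beside 1514 higher and 985 lower among the 11990 genes that were corrected. In the nuclear complex, 0 of 8 genes were higher and 2 lower, or 1 lower after correction. Besides Rbpj the lower one was the acetyltransferase gene Kat2b at 2.03-fold (1.71 to 2.41), or -0.64 on the log2 scale after correction. The Mastermind co-activator genes Maml1, Maml2 and Maml3 had log2 ratios of 0.20, 0.45 and 0.72.

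Of 6 measured genes for other ligands and ligand-like proteins, 4 were higher by 2-fold or more in null cells and 0 lower, beside the 12.2% and 13.7% of all genes. This list, like the other role lists, was chosen with earlier results of these data known. The count therefore describes the listed genes and is no support for a direction. Dll4 was not found, and Dll3, Cntn1 and Cntn6 were under the minimum with 2 and 1, 4 and 0, and 1 and 0 fragments. Mfap5 passed the expression minimum through the p65-null library alone, and Dner, a neuronal ligand under that minimum, had 16 and 1 fragments, a log2 ratio of -3.52 (-8.91 to -0.83). Mfap5, a microfibril protein that can bind Notch ligands and receptors, had 2.5 wild-type and 135.5 p65-null fragments, a log2 ratio of 6.24 (4.54 to 8.85). Ccn3, a matricellular protein that binds Notch1, was 16.6-fold higher (13.5 to 20.5), at 4.72 and 78.2 CPM. Mfap2 was 5.73-fold higher (4.65 to 7.11) and Egfl7 3.74-fold (2.97 to 4.74). The non-canonical ligand gene Dlk1 had a log2 ratio of 0.74 and Dlk2 of 0.04, or -0.37 after correction.

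Genes for receptor cleavage were higher in 1 of 9 measured and lower in 0, beside the 12.2% and 13.7% of all genes. The gamma-secretase subunit gene Psen2 was 3.74-fold higher (2.71 to 5.22), at 2.52 and 9.44 CPM. Adam10, the protease of the first cleavage, stood at -0.98 but at -0.10 after the GC and length correction, and Aph1b passed 2-fold only with it, from 0.83 to 1.52. Of 8 measured genes for sugar modification of the receptors, Eogt alone was at least 2-fold apart, at 2.07-fold lower (1.81 to 2.36), or -0.65 on the log2 scale after correction. The fringe genes Lfng and Rfng had log2 ratios of -0.24 and 0.55.

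Ubiquitin ligases and trafficking genes held 2 higher and 3 lower members among 16 measured, beside the 12.2% and 13.7% of all genes. The ligand-activating ligase gene Mib1 was 2.45-fold lower (2.24 to 2.69) and its relative Mib2 3.13-fold higher (2.69 to 3.66), at 11.5 and 36.1 CPM. Of the Deltex genes, Dtx4 was 2.99-fold lower (2.52 to 3.58) and Dtx3l 3.28-fold higher (2.53 to 4.30). Neurl1a, another ligand ligase, was 2.01-fold lower (1.63 to 2.48). Numb, an inhibitor of the receptors, had a log2 ratio of 0.37.

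Among 17 measured corepressor genes, 1 was higher and 1 lower by 2-fold, beside the 12.2% and 13.7% of all genes. After correction 1 was higher and 3 lower, when Rita1 at -1.31 and Tle1 at -1.28 on the log2 scale joined the lower ones. Of all 11990 corrected genes, 1514 were higher and 985 lower. Tle2, of the Groucho family that Hes repressors recruit, was 3.35-fold higher (2.60 to 4.36). Bend6, which binds RBPJ, was 5.87-fold lower (3.17 to 11.96) with 94.5 and 11.5 fragments. Of 13 measured genes in the list of other targets, 1 was higher and 2 lower, beside the same shares of all genes. After correction 2 were higher and 2 lower. Snai2 joined the higher ones, from a log2 ratio of 0.47 to 1.08, and Myc the lower ones, from -0.81 to -1.05. The median log2 ratio of the 13 was -0.34, or -0.56 after correction. Gata3 was 20.1-fold higher (13.9 to 30.2), at 1.42 and 28.5 CPM. Id2 was 2.93-fold lower (2.58 to 3.33), or -0.85 on the log2 scale after correction, and Bhlhe41 2.82-fold lower (1.72 to 4.83). Many inputs other than Notch act on these genes. Of the other Hes and Hey family genes, Hes6 was 1.74-fold higher (1.42 to 2.13) with 177.5 and 220.5 fragments, or a log2 ratio of 0.80 and 0.40 after correction. The rest of those found were under the expression minimum. Hey2 had 12 and 4 fragments, Hes7 7.5 and 7.5, Hes5 0 and 1, and the feedback gene Nrarp 2 and 9, a log2 ratio of 2.65 (0.38 to 5.90).

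**Figure D5:**
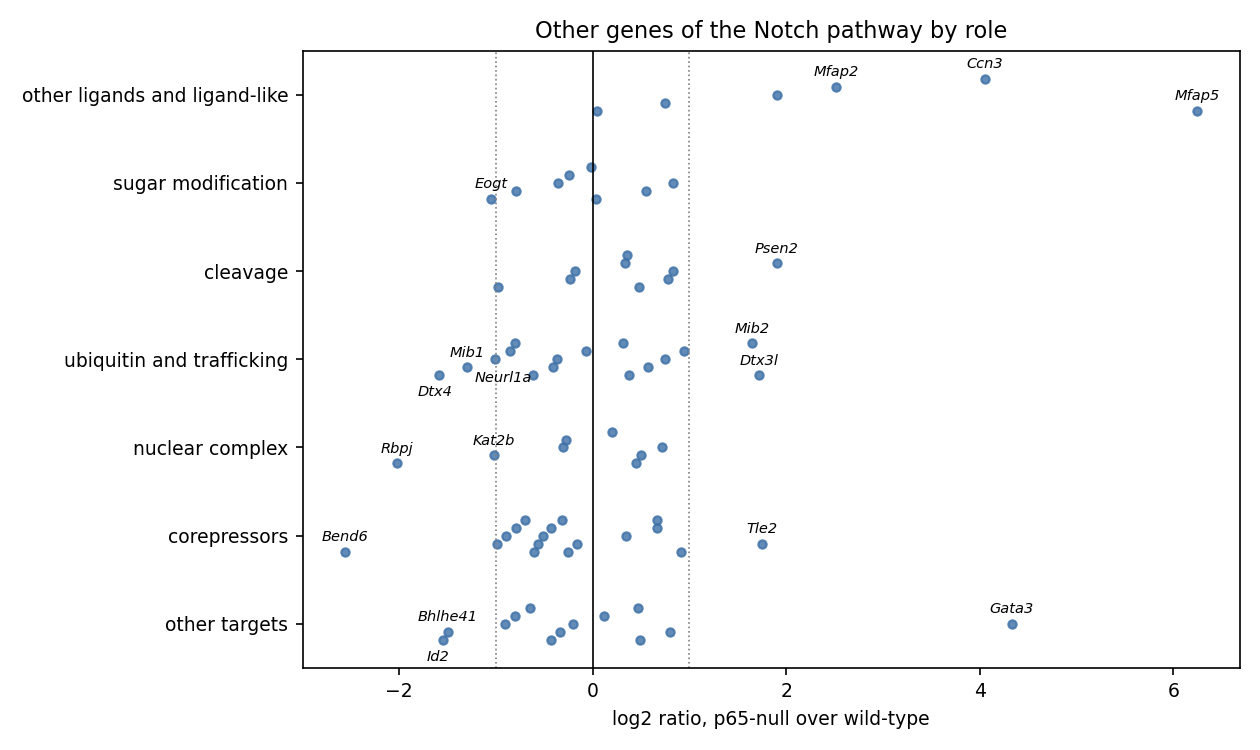
Log2 ratio of p65-null over wild-type for the 77 measured genes of the wider pathway, 1 point per gene in rows by role, with dotted lines at 2-fold. Most points lie between the dotted lines, and the labelled genes are those named by the rule for named genes.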

How the data were processed

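Members and gene lists were chosen with earlier results of these data known, and the motifs after the values were seen. The deposited table, named as raw counts, holds a scaled signal: both columns sum to about the same total (18117934 and 18117930), and the authors' values are whole multiples of 1 step, 0.436 for wild-type and 0.587 for p65-null. All 11943 and 12156 values up to 1000 came out whole (100%, within 0.0055). Even multiples were in excess (72.8% and 75.7% of values of 1 to 20 steps), so 2 steps were taken as 1 fragment. The design had assumed either unit. The recovered reads were not put to a count test, because a single library per genotype leaves no degrees of freedom for the spread. Per the submitters' processing notes, the tools were STAR 2.4, bcl2fastq 2.16, edgeR and HOMER on mm10, with no roles stated; the counting rule and annotation release are not stated in the labels.

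RefSeq identifiers were matched to symbols through a RefSeq table of GRCm38.p6 (16743) or GENCODE M21 (83); 55 had no match. Lengths and GC content came from the matched GENCODE transcripts. The coordinates given with each gene are the RefSeq span of the gene, not of the counted transcript. Libraries were scaled with edgeR 4.0.16 in R 4.3.3 (TMM factors 1.02 and 0.981). Ratio intervals are exact Clopper-Pearson, level intervals exact Poisson, both at 95%; fragments are not tagged molecules, so both cover counting error only. Where a library had 0 fragments, a floor of 3 was used. The correction used loess (span 0.3) on GC content and then length, for 11990 measured genes (98.8%). The text names all members, Rbpj, Rela and, per role list, up to 3 genes higher and 3 lower among those 2-fold apart, by the interval end nearest 0; other genes were named after their values were seen. With 2 libraries, genes of like pattern were not sought. In simulated Poisson counts over 12135 genes for this comparison, the true ratio lay inside the interval in 96.8% of cases at 2-fold. The share was 94.9% at 4-fold and 97.4% at 8-fold. The simulation used the model that the interval assumes, with no spread between cultures, so it checks the calculation only. Alternatives were upper quartile factors, total counts, size factors from DESeq2 1.42.0, ribosomal protein scaling, thinning of the deeper library, omission of the 10 most abundant genes, a prior count of 2, other expression minimums, the whole interval as criterion, the GC and length correction, the mean of a list, and shares by other lengths.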

Additional observations from a re-analysis of the deposited data

How the results depend on the processing

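Over the 8 alternative scalings, thinnings, prior counts and corrections, each of the 9 detected members kept the sign of its log2 ratio except Jag1, which was at -0.26 (-0.50 to -0.03) under ribosomal protein scaling. The Jag1 interval also left out 0 with upper quartile factors (0.02 to 0.49) and after the correction for GC and length (0.14 to 0.62), and held it in the other alternatives. For Notch4 the log2 ratio ranged from 0.59 to 1.11. Its interval, 0.19 to 1.82 in the main setting, held 0 under ribosomal protein scaling (-0.21 to 1.42) and after the GC and length correction (-0.01 to 1.62). The log2 ratio ranged from 1.94 to 2.46 for Notch1, 4.42 to 4.94 for Notch3, 4.73 to 5.25 for Hey1, 1.03 to 1.54 for Dll1, -0.62 to -0.10 for Notch2 and -1.07 to -0.56 for Hes1. Members higher by 2-fold or more numbered 3 to 5 over all alternatives. Ribosomal protein scaling put 1 member, Hes1, at least 2-fold lower; it also put 22 genes of the wider pathway lower, with a median log2 ratio of -0.57, and the median of all genes at -0.44. Upper quartile factors put 6 wider pathway genes lower, and the criterion of the whole interval past 2-fold put 5. Without length scaling, the Notch2 share of receptor fragments was 96.1% in wild-type and 75.04% in p65-null cells, and Hes1 96.1% and 30.8% of the target fragments, since the transcripts differ in length. The longest transcript gave the same shares, because it was as long as the matched one for each detected member, so this alternative checks nothing. Depth limits Jag2, Dll1 and Notch4, which rest on 4 to 33.5 fragments per library. It also limits the size of the Notch3 and Hey1 ratios, whose wild-type counts were 20 and 17 fragments. No paired analysis was possible because each genotype has 1 library, and for the same reason no library could be left out.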
